A study of Mus musculus with 6 samples.

Results

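The anoctamins are a family of membrane proteins encoded in the mouse by 10 genes, Ano1 to Ano10, and are described here by the DNA at them that was pulled down with oligonucleotides to Tug1, a long noncoding RNA, in cultured mouse podocytes. A peak was counted for a gene when it lay inside the gene or within 5 kb of either end. The genes are 10 of 21887 protein-coding genes placed on the mouse chromosomes, and 111 peaks lay at them. Peaks of different libraries that overlapped by at least 1 bp were merged, which left 94 regions at the family out of 113114 in all. The family was chosen by the peak lists themselves, selected on the number of regions of Ano2 recovered in all 4 libraries, which was 2. The counts at Ano2 and the rest of the family are therefore given as a description and not as a test.

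The assay was ChIRP-seq, short for chromatin isolation by RNA purification with sequencing, in which biotinylated oligonucleotides complementary to an RNA pull it out of crosslinked chromatin and the DNA that comes with it is sequenced. The 48 probes along Tug1 were split into alternating even and odd sets that share no probe. There were 2 pulldown libraries with the even set and 2 with the odd set, all from the same kind of cells, and 2 libraries of input DNA that entered only through the authors' peak calling. All samples were podocytes immortalised with a temperature-sensitive SV40 T antigen, grown at 33 degrees, differentiated for 10 days at 37 degrees and used at passages 10 to 12. Such a line is a model of the glomerular podocyte and not the cell in its tissue. Peak lists hold no expression values, so podocyte identity was not tested here. The labels do not state that replicates came from separate cultures, and p-values then measure a spread between libraries that may be technical.

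Anoctamins share a fold in which the protein spans the membrane many times and binds calcium ions between its helices. Some members are chloride channels opened by intracellular calcium, which carry secretion in epithelia and excitability in smooth muscle and sensory cells. Others are scramblases, which let lipids such as phosphatidylserine cross between the leaflets of a membrane. Channels and scramblases of this family are built on the same architecture, with TMC and TMEM63 proteins as more distant relatives.

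The 4 lists held 40725 and 26529 peaks for even replicates 1 and 2 and 28047 and 34968 for odd replicates 1 and 2, and their read depth is unknown. Each peak carries a score from the authors' peak caller whose scale is not stated, and it is used only within its own list. Many peaks share a score of 3100, namely 78.6% of the list of even replicate 1 and 99.9% of that of odd replicate 1, against 0.0641% in even replicate 2 and 0.100% in odd replicate 2. Scores therefore rank peaks mainly in the replicate 2 lists. As a check of the assay, the Tug1 gene itself held 3 regions found in all 4 libraries. That gene has the sequence the probes were made to, so its recovery does not check the peaks at other genes.

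Peaks at the family numbered 32 in even replicate 1, 18 in even replicate 2, 34 in odd replicate 1 and 27 in odd replicate 2. Per 10000 peaks of the list these were 7.86 and 6.79 in the even libraries and 12.1 and 7.72 in the odd libraries. The groups overlapped, with odd replicate 1 the highest. The mean was 7.32 ± 0.758 with even probes and 9.92 ± 3.11 with odd probes (SD, n = 2 each), a difference of -2.60 that did not pass an exact two-sided permutation test (p = 0.667, where 4 libraries allow no p below 0.333). Without odd replicate 1 the difference was -0.400 (exact permutation p = 1). Over the window of the 10 genes, 1.75 Mb in all, there were 63.3 peaks per Mb, against 55.9 per Mb over the windows of all protein-coding genes. The median was 66.6 peaks per Mb over the 10 genes and 52.3 over all protein-coding genes.

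At least 1 peak lay at 9 of the 10 anoctamin genes, where 74.9% of all protein-coding genes had one. Recovery with both probe sets in 1 region was seen at 5 of them, Ano2, Ano4, Ano6, Ano7 and Ano10, against 16% of all protein-coding genes. Length matters here. Among the 200 genes nearest in length to each of these, 61.5%, 65%, 49%, 13% and 34% had such a region. For Ano1, Ano3, Ano5, Ano8 and Ano9, which had none, the shares were 43.5%, 65.5%, 25.5%, 8% and 12.5%. A region of 3 or 4 libraries lay at 4 of the 10 anoctamin genes, against 6.88% of all protein-coding genes. Among genes of like length that share ran from 3.5% (for Ano8) to 36% (for Ano4). Only Ano2 had a region in all 4, a class that 1.6% of protein-coding genes had. These genes are long, with a median of 141 kb against 17.2 kb for all protein-coding genes, and the median number of peaks was 2 at genes as long as Ano7 and 19 at genes as long as Ano4. Of the 94 regions, 84 came from 1 library, 5 from 2, 3 from 3 and 2 from all 4. In percent that is 89.4%, 5.32%, 3.19% and 2.13%, against 88.6%, 8.72%, 2.06% and 0.661% of all merged regions.

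**Figure D1:**
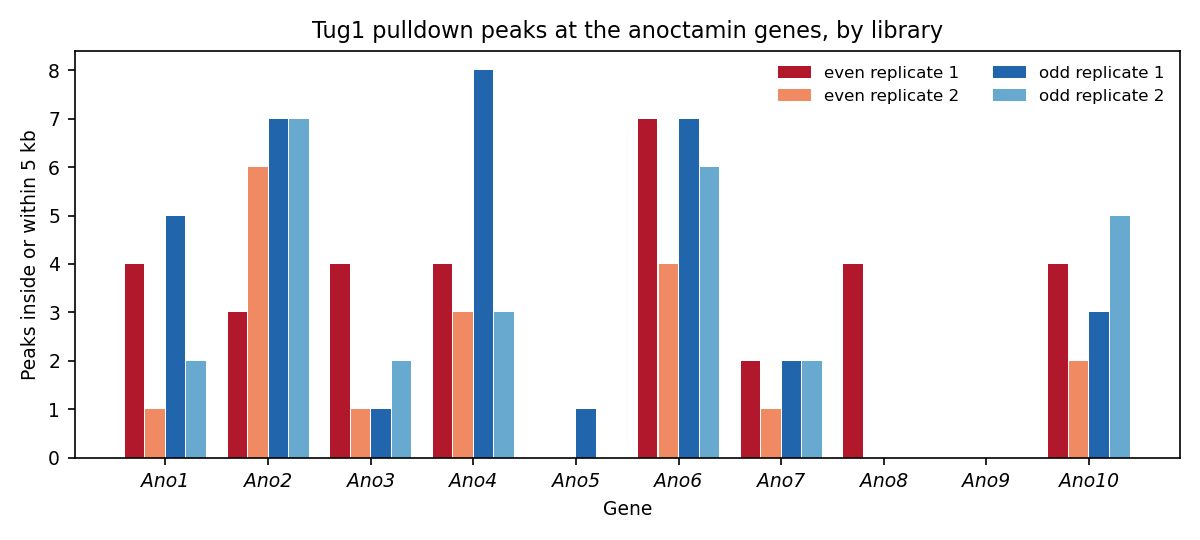
Number of peaks inside or within 5 kb of each anoctamin gene (vertical axis) in each of the 4 pulldown libraries, even replicates in red shades and odd replicates in blue shades. Ano6 and Ano2 have the most peaks, 24 and 23 over the 4 libraries, Ano5 has 1, Ano8 has 4 that all come from even replicate 1, and Ano9 has none.

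Among the calcium-activated chloride channels, Ano2 carried the regions found most widely. Ano2 is the channel best known from the cilia of olfactory sensory neurons and from photoreceptor terminals. Ano2 (gene ID 243634) covers 349715 bp on chromosome 6 of mm10, from 125690419 to 126040133, on the plus strand. It had 3 and 6 peaks in even replicates 1 and 2 and 7 in each odd replicate. These formed 16 regions, of which 13 came from a single library, 1 from even replicate 1 with odd replicate 1, and 2 from all 4 libraries. All but 1 region lay inside the gene; the exception, from odd replicate 2, ended 1172 bp before its first annotated start.

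The first region of Ano2 in all 4 libraries lay at chromosome 6, 125816536 to 125816858, which is 126 kb into the gene. Its score was 3100 in even replicate 1 and 577 in even replicate 2, and 3100 in odd replicate 1 and 352 in odd replicate 2. In the replicate 2 lists these stood at the 92.4 percentile with even probes and the 78.8 percentile with odd probes, while in the replicate 1 lists a score of 3100 is tied with most others. The 4 peaks had nearly the same edges: they were 311 to 323 bp wide, their starts differed by 12 bp and their ends by 4 bp. Among 693 regions with exactly 1 peak in each library, 13 had edges closer together by the sum of these ranges, which was 16 bp here and 209 bp at the median. By score this region was ordinary among the 748 regions in all 4 libraries, of which 289 scored higher in even replicate 2 and 499 in odd replicate 2.

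The second lay at chromosome 6, 125876656 to 125877527, 187 kb into the gene. It scored 3100 in each of the 4 libraries, which is the 99.96 percentile in even replicate 2 and the 99.94 percentile in odd replicate 2. Only 14 of the 748 regions scored at least 3100 in every library, the Tug1 locus and this region among them. The 14 also held neighbouring regions of chromosome 2, at 98662099 to 98663095 and 98666103 to 98667457. Repeats and mappability were not checked at any of the 14, so membership does not show recovery by Tug1. Its peaks were 573 and 732 bp wide in the even libraries and 556 and 676 bp wide in the odd libraries, and 533 bp were common to all 4. Their edges varied more than at the first region, with a sum of ranges of 339 bp.

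Neither region overlapped another annotated gene, but their sequence, repeats and mappability were not checked. The lncRNA gene Gm33202 lay 4214 bp from the first, and the small nuclear RNA gene Gm24947 lay 6888 bp from the second. The RefSeq start table lists 3 starts for Ano2, and the regions were 106 and 166 kb downstream of the nearest. The region of even replicate 1 and odd replicate 1, at 125826055 to 125826478, lay between them, with a score of 3100 in both and no peak in either replicate 2 library.

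**Figure D2:**
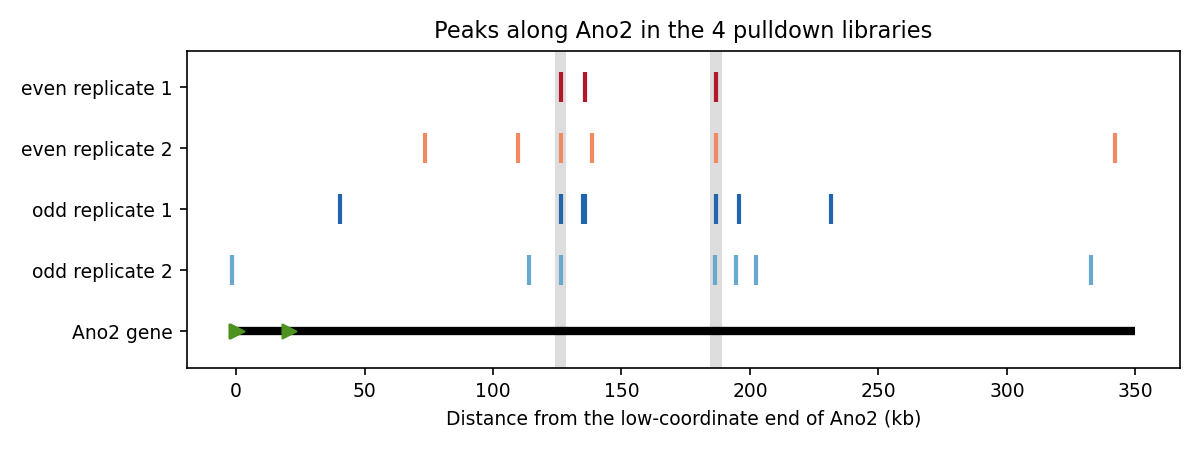
Centres of the peaks along Ano2 (horizontal axis, kb from its low-coordinate end, which is its first annotated start) in each library, with the gene as a black bar and annotated starts as green arrowheads. The grey bands mark the 2 regions found in all 4 libraries, 126 and 187 kb into the gene; the other peaks are scattered, mostly in 1 library each.

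Against genes of like length, the count at Ano2 was high. Among the 200 protein-coding genes nearest in length, from 308 to 409 kb, 181 had no region in all 4 libraries, 16 had 1 and 3 had at least 2. Thus 1.5% had at least as many as Ano2, and 9.5% had at least 1. Over all protein-coding genes 0.0868% had at least 2. The 3 were Ulk4 with 3 regions and Csgalnact1 and Limch1 with 2 each, and these held 60, 30 and 41 peaks in all, against 23 at Ano2. The share depended on the libraries required. Without even replicate 2 it was 4.5% (9 genes) and without odd replicate 2 it was 3% (6 genes). With peaks at or above the median score of their list no gene of the 200 had as many. That cut acts mainly on the replicate 2 lists. In even replicate 1 and odd replicate 1 the median is 3100, and 80.5% and 99.9% of peaks score at least that.

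In total peaks Ano2 was less unusual, with 77.5% of the 200 genes holding fewer and 19.5% more, at a median of 18. Of the 20 genes nearest in length on chromosome 6, 12 had fewer peaks than Ano2 and 8 had more, at a median of 19. Among the genes most like it in the numbers of peaks over the 4 libraries, by Euclidean distance among those 200, were Pdzrn4 and Tnik (distance 2.45 each), Spock3 (3.16) and Col22a1 (3.61). Pdzrn4 had 4 and 6 peaks in the even libraries and 5 and 6 in the odd libraries. Spock3 had 3 and 6 in the even libraries and 4 and 8 in the odd libraries. None of these held a region of 3 or 4 libraries, so their likeness to Ano2 is in numbers of peaks and not in shared regions.

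Ano1, the other classical calcium-activated chloride channel, which drives fluid secretion in epithelia and pacing in gut muscle, showed no shared recovery. Ano1 (gene ID 101772) covers 163 kb of chromosome 7, 144588549 to 144752026. It had 4 and 1 peaks in the even libraries and 5 and 2 in the odd libraries, and all 12 formed regions of a single library. Those with a score of 3100 in even replicate 1 lay at 144622058 to 144622305 and 144756654 to 144756897. In the replicate 2 lists the 1 even peak scored 141 and the 2 odd peaks 136 and 105, below the list medians of 265 and 221. In number, its 12 peaks exceeded 76.5% of the genes of like length.

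**Figure D3:**
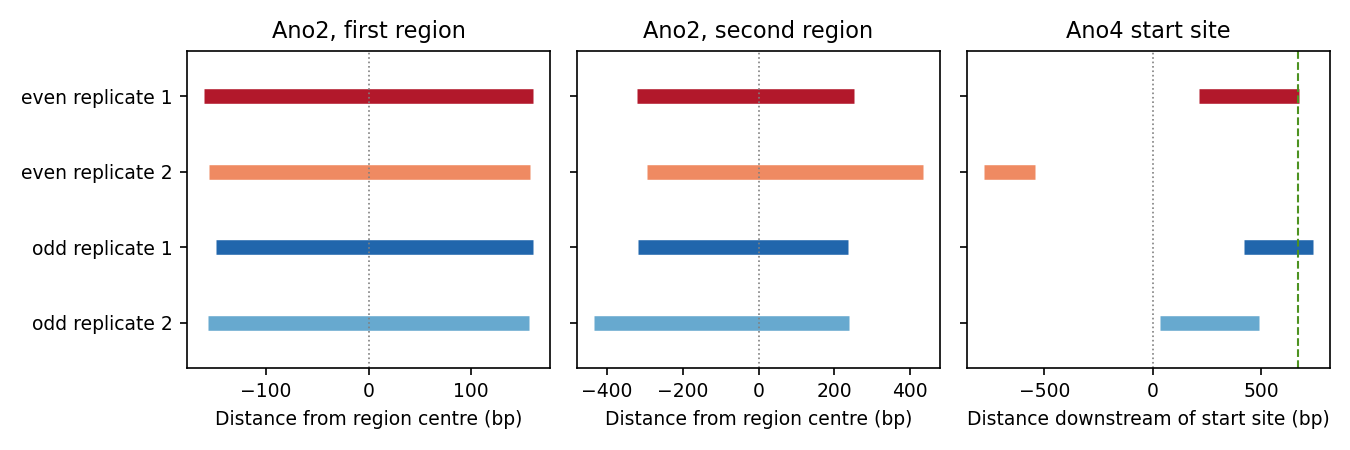
Extent of each library's peaks (bars) at the first and the second Ano2 region, in bp from the region's centre, and around the Ano4 start, in bp downstream of that start (dotted line; the dashed green line is the start of the lncRNA gene Gm30769). At the first Ano2 region the 4 bars have nearly the same ends, at the second they differ by up to 199 bp, and at Ano4 the bars of 3 libraries join downstream of the start while even replicate 2 lies 543 bp upstream.

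Ano4, for which scramblase activity has been reported, had peaks of all 4 libraries close to an annotated start. Ano4 (gene ID 320091) covers 396 kb of chromosome 10, 88948932 to 89345205, on the minus strand, and the RefSeq table lists a start at 89257790, inside the gene. A region of 3 libraries at 89257051 to 89257759 ended 31 bp downstream of it. It scored 3100 in even replicate 1, 3100 in odd replicate 1 and 295 in odd replicate 2, the 69.0 percentile there. The peak of even replicate 2 lay apart, at 89258333 to 89258569, 543 bp upstream of the start, with a score of 407 (78.2 percentile). All 4 libraries thus had a peak within 1 kb of this start, as at 0.114% of 17492 protein-coding genes with a listed start (20 genes, Ano4 included), and 0.777% had 3 or 4 libraries. The distance was set after the values were seen. Within 500 bp Ano4 had 3 libraries, where 0.48% of genes had 3 or 4, and within 2 kb it had 4, where 0.229% of genes had all 4.

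The same place holds the start of a lncRNA gene on the other strand, Gm30769 (2016 bp, 89257120 to 89259135), whose start lies 670 bp from that of Ano4, each transcript running across the other's start. The peaks of even replicate 1 and odd replicate 1 covered the Gm30769 start, the other libraries' peaks did not, and no peak covered the Ano4 start itself. The sequences next to these starts, from RefSeq (GRCm38.p6), are shown because the region covers the Gm30769 start and ends 31 bp from that of Ano4. Capitals mark bases covered by a peak, and each sequence is written 5′ to 3′ on the strand of its gene.
Gm30769, 250 bases before its start, chr10:89256870-89257119, plus strand: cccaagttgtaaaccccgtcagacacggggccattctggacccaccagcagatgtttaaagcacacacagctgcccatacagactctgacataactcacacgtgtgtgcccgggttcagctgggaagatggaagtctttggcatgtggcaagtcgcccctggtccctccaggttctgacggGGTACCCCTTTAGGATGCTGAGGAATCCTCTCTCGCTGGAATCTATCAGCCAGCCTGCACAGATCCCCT
Ano4, 250 bases before its start, chr10:89257791-89258040, minus strand: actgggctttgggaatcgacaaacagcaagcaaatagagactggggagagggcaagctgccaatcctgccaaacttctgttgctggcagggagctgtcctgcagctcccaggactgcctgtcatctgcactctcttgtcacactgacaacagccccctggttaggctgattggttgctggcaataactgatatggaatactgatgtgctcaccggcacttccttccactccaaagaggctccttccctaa
Ano4, the 19 bases after its start that a peak covered, chr10:89257741-89257759, minus strand: TGCCCCCGCCCCCCTACCC
The region reached 69 bases into the stretch before the Gm30769 start and none of the 250 before the Ano4 start. The 19 bases hold 1 match to the letters GGGCGG, on the opposite strand, the only match in the 300-base start window of Ano4. Of 21263 such windows of protein-coding genes, 46.2% held a match on either strand. That share is for whole windows and not for stretches of 19 bases.

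Over its whole length Ano4 had a number of peaks near the median of genes as long. It had 4 and 3 peaks in the even libraries and 8 and 3 in the odd libraries, and its 18 peaks compare with a median of 19 in the 200 genes of like length. A further region of even replicate 1 and odd replicate 2, at 89067949 to 89068546, scored 2472 in even replicate 1 (9.33 percentile) and 268 in odd replicate 2 (63.2 percentile).

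Among the scramblases, Ano6 had the most peaks of the family. Ano6 is the calcium-activated scramblase that exposes phosphatidylserine on activated platelets. Ano6 (gene ID 105722) covers 184630 bp of chromosome 15, 95790843 to 95975472. It had 7 and 4 peaks in the even libraries and 7 and 6 in the odd libraries, 24 in all, which is more than at 97% of the genes of like length. Chromosome 15 as a whole is rich in peaks in these lists, 73.9 per Mb against 123 per Mb at Ano6, and among the 20 genes nearest in length on that chromosome 16 had fewer peaks. The part of the chromosome in the count at Ano6 was not tested.

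Only 2 of the 21 regions at Ano6 held more than 1 library. The wider, at 95943326 to 95943996, joined even replicate 1 and odd replicate 1, at 3100 each, with odd replicate 2 at 110, the 7.28 percentile of that list. The other, at 95816754 to 95817158, came from the odd libraries alone, with 3100 in replicate 1 and 160 in replicate 2. In the replicate 2 lists its peaks ranged from the 21.4 to the 81.2 percentile with even probes and from the 7.28 to the 57.8 percentile with odd probes. Some of its peaks also lay in lncRNA genes, 2 of even replicate 2 in A130051J06Rik and 3 of the replicate 1 libraries in Gm41389.

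Ano10, an intracellular member whose loss causes a recessive spinocerebellar ataxia in humans, held the shared region with the highest percentile in odd replicate 2 outside Ano2. Ano10 (gene ID 102566) covers 118571 bp of chromosome 9, 122175874 to 122294444, on the minus strand, with 4 and 2 peaks in the even libraries and 3 and 5 in the odd libraries. Its region at 122282528 to 122282998, 11.7 kb downstream of the listed start, held even replicate 1 and odd replicate 1 at 3100 and odd replicate 2 at 928, the 98.6 percentile. Even replicate 2 had no peak there. Another region, at 122239412 to 122239823, joined even replicate 1 (score 2381, 7.85 percentile) and odd replicate 2 (score 334, 75.9 percentile). The 14 peaks at Ano10 exceeded 92% of the genes of like length, and 19 of the 20 on its own chromosome.

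A single peak of even replicate 2, at 122294586 to 122294845 with a score of 348 (68.6 percentile), lay across the stretch before the Ano10 start at 122294423. No other library had a peak within 1 kb. A peak overlapped a listed start window at Ano4 and Ano10 alone of the 8 family members with one, against 5.41% of protein-coding genes, and a region of 3 or 4 libraries did so at Ano4, against 0.326%. The sequence is shown to place that peak, in capitals, in a promoter rich in G and C (65.7% of its 300-base window, where the median over protein-coding genes was 56.3%).
Ano10, 250 bases before its start, chr9:122294424-122294673, minus strand: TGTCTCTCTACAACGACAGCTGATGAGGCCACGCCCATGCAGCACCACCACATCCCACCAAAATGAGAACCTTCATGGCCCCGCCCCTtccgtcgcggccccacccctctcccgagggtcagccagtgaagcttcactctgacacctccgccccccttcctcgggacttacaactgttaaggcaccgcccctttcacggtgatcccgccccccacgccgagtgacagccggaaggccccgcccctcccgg
The window held GGGCGG 5 times, each on the opposite strand, and 1 of these lay under the peak. The repeats CACACACA and GAGAGAGA, searched on both strands, were found in none of the family's 11 start windows, and in 3.56% and 3.37% of all windows. The Gm30769 window held CACACACA 1 time, outside the bases under a peak, and no GAGAGAGA.

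**Figure D4:**
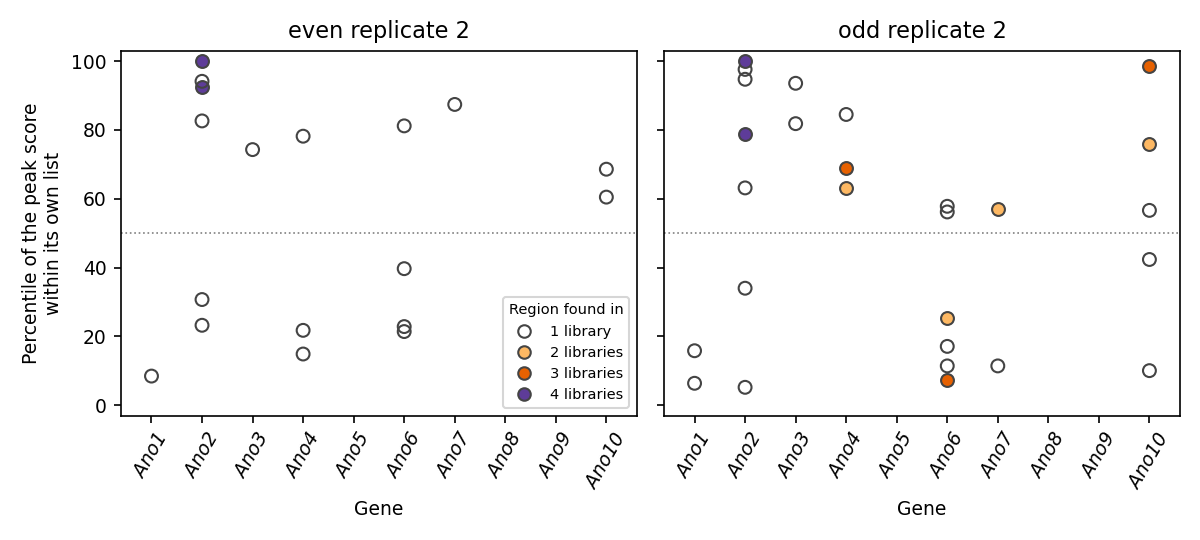
Percentile of each anoctamin peak's score within its own list (vertical axis) for the replicate 2 lists, even on the left and odd on the right, by gene; the fill gives the number of libraries in the merged region and the dotted line is the 50 percentile. The Ano2 regions of all 4 libraries stand at 92.4 and 99.96 in even replicate 2, the Ano10 region of 3 libraries at 98.6 in odd replicate 2, and the Ano6 region of 3 libraries at 7.28.

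Ano7, known from its expression in prostate, had 173 peaks per Mb, the highest density among the 5 genes with recovery by both probe sets. Ano7 (gene ID 404545) covers 30509 bp of chromosome 1, 93373796 to 93404304, with 2 and 1 peaks in the even libraries and 2 in each odd library. These 7 peaks exceeded 97.5% of the genes of like length, whose median was 2. One region, at 93399001 to 93399391, held even replicate 1 (score 2893, 16.4 percentile) and odd replicate 2 (score 245, 57.0 percentile); their peaks were 388 and 381 bp wide. A peak of even replicate 2 at 93391771 to 93392151, at the 87.4 percentile, and 1 of even replicate 1 lay next to each other without overlap.

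Ano3, mutated in a human dystonia, and Ano5, mutated in human muscular dystrophy, were at the low end. Ano3 (gene ID 228432, chromosome 2, 110655201 to 110950391) had 4 and 1 peaks in the even libraries and 1 and 2 in the odd libraries, none shared. Its 8 peaks in 295 kb compare with a median of 16 in genes of like length, 7.5% of which had fewer, and with 4 of 20 having fewer on the same chromosome. The 2 odd replicate 2 peaks there, at the 81.8 and 93.5 percentiles, lay next to each other, at 110897826 to 110898346 and 110898630 to 110898888. Ano5 (gene ID 233246, chromosome 7, 51510007 to 51598707) had 1 peak, from odd replicate 1 at 51570656 to 51570894 with a score of 3100, against a median of 5, and 1.5% of genes of like length had fewer.

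Ano8, a protein linked to contacts between the endoplasmic reticulum and the plasma membrane, and Ano9 are the shortest members. Ano8 (gene ID 382014, chromosome 8, 71476016 to 71486092) had 4 peaks, all from even replicate 1, with scores of 1905, 3100, 3100 and 2179. That exceeded 91.5% of genes of like length but 12 of 20 on chromosome 8, which held 82.6 peaks per Mb. The peak scoring 2179 lay outside Ano8, in the neighbouring gene Gtpbp3. Ano9 (gene ID 71345, chromosome 7, 141101212 to 141117806) had no peak in any library, and 76.5% of genes of like length had at least 1.

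**Figure D5:**
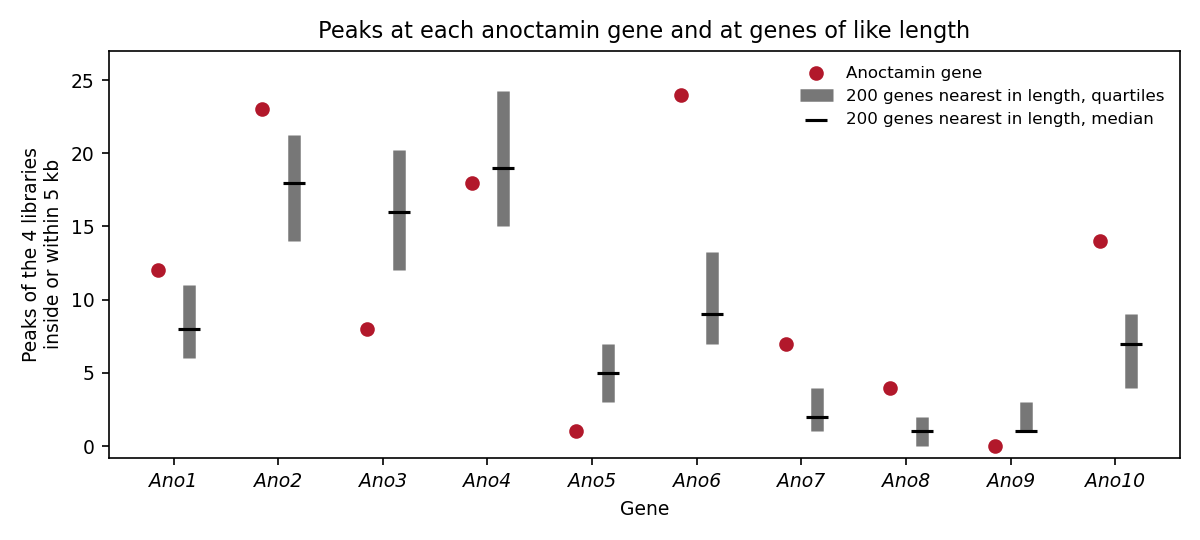
Peaks of the 4 libraries at each anoctamin gene (red points) beside the 200 protein-coding genes nearest to it in length (grey bars from the lower to the upper quartile, black ticks at the median). Ano1, Ano2, Ano6, Ano7, Ano8 and Ano10 lie above their bars, Ano1 and Ano2 by the least, Ano3, Ano5 and Ano9 lie below, and Ano4 lies inside.

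The 4 genes with a region of 3 or 4 libraries, Ano6, Ano2, Ano4 and Ano10, were also those with the most peaks, 24, 23, 18 and 14. All 9 regions with both probe sets contained even replicate 1, and only the 2 at Ano2 contained even replicate 2. All 3 regions of 3 libraries lacked even replicate 2. Of the family's peaks, 28.1% in even replicate 1 and 11.1% in even replicate 2 (2 of 18, 95% Wilson interval 3.10% to 32.8%) belonged to a region with another library, as did 20.6% in odd replicate 1 and 33.3% in odd replicate 2. Over whole lists these shares were 25.8% and 24.1% for the even libraries and 22.1% and 19.998% for the odd libraries. Each lay inside the Wilson interval of the family's share, but the family's shares include the 2 Ano2 regions it was selected on. In even replicate 2 the 2 shared peaks were those of these regions, so the comparison is a description and no test of agreement. Intervals cover counting error only. Without even replicate 1, 2 regions with both probe sets were left, and without even replicate 2, 5 regions were in all libraries that remained.

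The limit of 5 kb decided little. Inside it, the farthest peaks lay 4711 bp beyond Ano6 (even replicate 2, score 184) and 4655 and 4628 bp beyond Ano1 (even replicate 1, scores 2446 and 3100). The nearest outside lay 6656 bp beyond Ano5 (odd replicate 1, score 3100) and 8039 bp beyond Ano2 (odd replicate 1, score 3100). Of the 94 regions, 87 lay inside the gene.

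Related genes were counted in the same way. Among 35 genes listed as other chloride channels, 6 (17.1%) had a region of both probe sets, against 16% of all protein-coding genes. They were Clcn1, the chloride channel of skeletal muscle, Clcn5, an endosomal chloride-proton exchanger of the kidney, Clca1, the volume-regulated channel subunits Lrrc8d and Lrrc8e, and Ttyh2. Whether each listed gene, Clca1 among them, encodes a channel itself was not checked. Of 11 TMC and TMEM63 genes, 3 (27.3%) had one, Tmc3, Tmc4 and Tmc5, each with 1 region. Of 28 other scramblase and flippase genes, 5 (17.9%) had one, Xkr4, Plscr4 and the P4-type flippase genes Atp8a2, Atp8b1 and Atp9b. These counts rested on single libraries. Without even replicate 1 they were 1 chloride channel gene, 0 TMC and TMEM63 genes and 1 scramblase or flippase gene, and without odd replicate 1 they were 1, 2 and 1. The TMC and TMEM63 count was also 1 without odd replicate 2 and 1 when only peaks inside the gene were counted. The anoctamins had a median of 66.6 peaks per Mb at a median length of 141 kb. The medians were 63.3 peaks per Mb and 28.5 kb for the other chloride channels, 82.9 peaks per Mb and 41.9 kb for the TMC and TMEM63 genes, and 42.0 peaks per Mb and 71.3 kb for the other scramblases and flippases. No gene of these lists had a region in all 4 libraries, a class that 1.6% of all protein-coding genes had. In lists this short a count of 0 does not set them apart from other genes. Without odd replicate 2, 1 scramblase or flippase gene had a region in all libraries that remained. Atp8a2 came nearest, with a region at chromosome 14, 59935467 to 59935978, that scored 3100 in even replicate 1, 1234 in even replicate 2 (99.4 percentile) and 3100 in odd replicate 1.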

How the data were processed

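Alignment used Bowtie2 2.1.0 and mm10, as listed in the submitters' processing notes. Each pulldown has its own deposited peak list, unpooled; by its file name it was called against an input, number 1 for replicates 1 and number 2 for replicates 2. Peak names start with MACS, whose version and threshold the sources used here do not give. The score is the authors', as deposited, and its percentile is the mean rank within a list. Lists carry no counts, so depth is unknown, and no precision could be set from it. A series-wide list of 130269 peaks equals the 4 lists joined. Input values and pulldowns with unrelated probes were not analysed here.

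Positions are 1-based on mm10. Genes, starts and promoter sequences came from RefSeq tables of GRCm38.p6, in which 8 of the 10 genes have a start window (250 bases before to 50 after a start); exons were not used. Libraries were compared by an exact permutation test. The members and lists were chosen with earlier results of these data known. The rule named all 10 genes, every region of 3 or 4 libraries or, where a gene had none, its region in most libraries with the highest percentile, genes of like length with as many regions as Ano2, and the 5 nearest to it in peak numbers, 1 of which is not reported here. Other regions, lncRNA genes and the GGGCGG search were picked after seeing values. Alternatives comprised 50% reciprocal overlap, only peaks with at least the median score, windows of 0, 2 and 10 kb, other like-length sets, same-number pairs and each library left out. On simulated lists, 100 of 100 planted regions of 4 libraries were found, and 2 of 100 planted in 3 libraries were called in 4. The planted peaks were made to overlap and the other peaks were placed at random. This checks the merging and counting only, not how reliable a region of 4 libraries is in the real lists. Software versions were matplotlib 3.10.9, scipy 1.17.1, pandas 2.3.3, numpy 2.4.6 and Python 3.11.15.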

Additional observations from a re-analysis of the deposited data

How the results depend on the processing

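Of 304 recalculated values, 275 stayed within a fixed rule, 29 moved and none turned direction. Only the even minus odd difference could turn direction. Many of the values are counts of 0, which stricter settings cannot change, and the Ano2 count is entered more than once. The tally is therefore not a measure of how firm the results are. The rule allows a count to differ by 1.5 times and a share to stay in the 95% Wilson interval of its main value. For shares beside genes of the same chromosome, the main value had to lie in the interval of the 20 genes. Ano2 kept 2 regions in all libraries required under every setting run, but most settings could not lower that count. Leaving a library out also lowers the number of libraries required. Both regions lie far inside the gene, so a change of window cannot remove them. Only reciprocal overlap and the median score cut could have lowered the count, and it stayed at 2 under each. The share of genes of like length with at least as many regions as Ano2 was 0% with peaks at or above the median score. It was 0.75% to 1.46% with other like-length sets and ran between 1.5% and 4.5% with a library left out. Anoctamin regions in all libraries numbered 2 to 5 with a library left out, and those with both probe sets 2 to 9. The share of anoctamin peaks in a region with another library was 24.3% and ran between 16.7% and 26.9%. The even minus odd difference was -2.60 peaks per 10000 and ran between -4.80 and -0.400 with a library left out.

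Same-numbered libraries share an input per the file names, but 2 pairs do not show that the numbers pair the samples (correlation of deviations over 21887 genes 0.0858). With the replicate block the difference was -2.60 (exact permutation p = 0.5, the smallest that 2 pairs allow), so the block changed no call. Set beside genes of their own chromosome, a setting added after seeing the data, the position in peak number moved for Ano3, Ano6 and Ano8. There 20%, 80% and 60% of 20 genes had fewer peaks. An interval from 20 genes is wide. Ano2 and Ano4 did not count as moved, though their shares went from 77.5% to 60% and from 40.5% to 60%.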
